A study of Mus musculus with 15 samples.

Results

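The complement components and regulators C3, C4b, Cfb, C1rl, Cd55, Cd59a and Clu were followed in mouse embryonic fibroblasts (MEFs) with and without Mta1. Mta1 encodes a subunit of the NuRD complex, which remodels nucleosomes and removes acetyl groups from histones. A gene was taken where a row of the expression table was annotated to its symbol alone. Of the 7 genes, 4 had such a row (Clu, C1rl, Cfb and Cd55, with 1 row each), out of 16755 rows and 14860 genes with a row of their own. C4b was measured only together with C4a, and Cd59a only together with Cd59b, so these are given as shared rows. C3 was not analysed here.

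The arrays were Affymetrix Mouse Exon 1.0 ST, with 3 in each of 5 groups and 15 in all, and every group was of the C57BL/6J strain. WT MEFs carried wild type Mta1, Mta1-KO MEFs carried an Mta1 knockout, and Mta1-KO/Mta1 MEFs were knockout cells into which Mta1 had been transfected back, all from embryonic day 9.0. P53-KO MEFs lacked P53 and were a gift from another laboratory, and P53-KO/Mta1 MEFs were the same knockout with Mta1 over expressed, both from embryonic day 12.5. No WT of day 12.5 was analysed here, so in any comparison of a P53-KO line with WT the genotype, the age of the embryos and the origin of the cells cannot be told apart. The labels name no knockout line transfected without Mta1, so added Mta1 and the transfection itself cannot be told apart either. The cells were grown in medium with serum and the labels name no stimulus. Arrays of WT, Mta1-KO and P53-KO are called biological replicates in the labels, but the number of embryos or cultures behind them is not given, so a p-value covers the spread between arrays, which may be technical.

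Complement is a cascade of proteases and opsonins that marks microbes and damaged cells. The classical pathway starts when C1q recruits the proteases C1r and C1s, which cut C4 and C2. The lectin pathway reaches the same step through the MASP proteases, and the alternative pathway forms its C3 convertase with factor B. All of them meet at C3 and end in the membrane attack complex, while soluble and membrane bound regulators hold the cascade back on host cells. The liver makes most of the circulating proteins, and fibroblasts make several of them locally.

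Each value below is the authors' log2 value relative to the median of that row over the 15 arrays. A value of 1 therefore means a level 2-fold above the row's median, and levels cannot be set against each other between genes. A gene was called where the adjusted p of limma's moderated test, by Benjamini-Hochberg over all 16755 rows, was under 0.05 and the fold was at least 2. On the WT arrays the Mta1 row read 0.08, -0.06 and 0.00, on those of Mta1-KO -1.06, -1.08 and -1.10. It read -1.13, -1.35 and -1.28 in the arrays labelled Mta1-KO/Mta1, so it was not higher there than in Mta1-KO (log2 difference -0.17, adjusted p = 0.0669). In P53-KO it read 0.36, 0.52 and 0.37, and in P53-KO/Mta1 it read 0.65, 0.76 and 0.65 (log2 difference 0.27, limma adjusted p = 0.00603, and 0.0759 by the methods' t-test). Whether the probes of the row lie in the deleted or in the introduced sequence is not given. In these values, directions drawn from the arrays labelled Mta1-KO/Mta1 therefore rest on the label. The study compared Mta1 protein between all groups by Western blot, which was not read here. Trp53 was not analysed here. By Euclidean distance over all rows, each of the 15 arrays lay nearest to the other arrays of its own group.

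Clu and C1rl rose in Mta1-KO MEFs and fell back once Mta1 was returned to them by label, whereas Cfb moved by less than 2-fold and Cd55 did not pass the test. Clu also fell when Mta1 was over expressed in P53-KO MEFs. Of the 4 genes, 2 were called higher in Mta1-KO, set against WT, where 4.23% of all rows were called higher and 2.41% lower. In Mta1-KO/Mta1 against Mta1-KO 2 were called lower, where 0.788% of all rows were called lower and 0.322% higher. In P53-KO/Mta1 against P53-KO 1 was called lower, where 1.22% of all rows were called lower and 0.394% higher. The median log2 difference of the 4 genes was 0.97, -0.67 and -0.54 in these comparisons, beside 0.03, -0.03 and -0.02 over all rows. The first 2 comparisons share the Mta1-KO arrays, so a low or high reading there enters both.

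Clusterin, the product of Clu (chromosome 14), is a secreted chaperone that binds the terminal complement proteins and keeps the membrane attack complex from inserting. The Clu row read -0.91, -0.83 and -1.05 in WT, against 1.53, 1.62 and 1.54 for Mta1-KO. It read -0.27, 0.00 and 0.02 in the arrays labelled Mta1-KO/Mta1. All Mta1-KO arrays stood above all others of these 3 groups, and the arrays labelled Mta1-KO/Mta1 lay between them and WT. Mta1-KO exceeded WT 5.64-fold in Clu (log2 2.50 ± 0.115 SE, n = 3 arrays a group, limma adjusted p = 2.88e-10). Mta1-KO/Mta1 in turn was 3.13-fold below Mta1-KO (log2 -1.65, limma adjusted p = 2.27e-07). This covered 66% of the distance back to WT on the log2 scale, and Clu stayed 0.85 above WT (limma adjusted p = 3.06e-05), which is under 2-fold.

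In the P53-KO background the Clu row read 1.11, 1.43 and 0.98 without added Mta1, and -0.79, -0.55 and -0.47 with it. The lowest P53-KO array was above the highest P53-KO/Mta1 array. P53-KO/Mta1 was 3.42-fold below P53-KO (log2 -1.77, limma adjusted p = 6.78e-08). The falls in both backgrounds share no arrays, and their difference was 0.13 on the log2 scale with a 95% interval of -0.22 to 0.47 (limma adjusted p = 0.731). P53-KO was itself 4.3-fold above WT in Clu (log2 2.10, limma adjusted p = 1.56e-09). The order of the groups was Mta1-KO, P53-KO, Mta1-KO/Mta1, P53-KO/Mta1 and WT, and all 4 pairs of neighbours differed (limma adjusted p between 3.74e-07 and 0.0283). The last of them, P53-KO/Mta1 above WT by 0.33, did not pass by the methods' t-test (adjusted p = 0.101). It also failed by limma without WT replicate 1 (adjusted p = 0.0572) or 3 (0.0969), and without P53-KO/Mta1 replicate 2 (0.0855) or 3 (0.115).

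C1rl (chromosome 6) encodes a secreted serine protease related to C1r. Its row read -0.33, -0.37 and -0.30 in WT, against 1.28, 1.23 and 1.14 for Mta1-KO. The arrays labelled Mta1-KO/Mta1 read -0.07, 0.10 and 0.11. As with Clu, the Mta1-KO arrays stood clear of both other groups. Mta1-KO exceeded WT 2.92-fold (log2 1.55 ± 0.0687 SE, n = 3 arrays a group, limma adjusted p = 1.98e-10). Mta1-KO/Mta1 was 2.25-fold below Mta1-KO (log2 -1.17, limma adjusted p = 4.35e-08), a return of 75.7% of the distance to WT. After quantile normalization between arrays this fall was -0.96 (limma adjusted p = 1.80e-07), just under 2-fold and no longer called.

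In contrast with Clu, C1rl in P53-KO MEFs lay close to the re-expression line and not to Mta1-KO. It read 0.01, 0.00 and 0.05 in P53-KO and -0.51, -0.78 and -0.66 in P53-KO/Mta1. No array of P53-KO/Mta1 reached the lowest P53-KO array. The difference of -0.67 passed the adjusted p (5.74e-06, limma) but not the 2-fold limit. The fall of C1rl was larger in the Mta1-KO background than in the P53-KO background, by 0.50 on the log2 scale (-0.50 ± 0.0971 SE, limma adjusted p = 0.00241). P53-KO/Mta1 was the lowest of the 5 groups, 0.32 below WT (limma adjusted p = 0.00135). Mta1-KO/Mta1 and P53-KO were the only neighbours in the order that did not differ (0.03, limma adjusted p = 0.785).

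Factor B, the product of Cfb (chromosome 17), supplies the protease of the alternative pathway C3 convertase. The Cfb row read -0.34, -0.26 and -0.07 in WT, 0.21, 0.13 and 0.18 in Mta1-KO, and 0.00, 0.01 and -0.02 in the arrays labelled Mta1-KO/Mta1. It read 0.49, 0.28 and 0.41 in P53-KO and 0.00, -0.03 and -0.07 in P53-KO/Mta1. The order of the groups was thus led by P53-KO, with WT lowest. Mta1-KO was 0.39 above WT (SE 0.0682, limma adjusted p = 2.71e-04) and P53-KO/Mta1 was 0.42 below P53-KO (limma adjusted p = 3.09e-04), both short of 2-fold. Mta1-KO/Mta1 differed from Mta1-KO by -0.17, which did not pass (limma adjusted p = 0.0792), although the arrays of these groups did not overlap. It passed by the methods' t-test (adjusted p = 0.0219), by limma on the compared groups only (0.0262) and after quantile normalization (0.0412). In the order, the neighbours P53-KO and Mta1-KO differed (0.22, limma adjusted p = 0.0162), as did P53-KO/Mta1 and WT (0.19, 0.0329), and the neighbours between them did not. The difference of P53-KO/Mta1 from WT failed by the methods' t-test (adjusted p = 0.166) and by limma on the compared groups only (0.089). It also failed without WT replicate 1 (0.13, limma adjusted p = 0.167) or 2 (0.17, 0.102), and without P53-KO/Mta1 replicate 1 (0.18, 0.0922) or 2 (0.19, 0.0746).

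Cd55 (chromosome 1) encodes decay accelerating factor, a membrane bound protein that takes C3 convertases apart. Its row stayed between -0.10 and 0.07 on all 15 arrays. WT, Mta1-KO and Mta1-KO/Mta1 overlapped, and the P53 lines, which overlapped each other, lay slightly above WT (0.10 for P53-KO and 0.11 for P53-KO/Mta1, limma adjusted p = 0.0962 and 0.0674). The latter passed by the methods' t-test (adjusted p = 0.0346), after quantile normalization (0.0269) and with arrays centred on their median (0.048), at under 2-fold. Mta1-KO differed from WT by 0.05, with a 95% interval of -0.05 to 0.15 (limma adjusted p = 0.408). None of the 4 neighbouring pairs in the order differed (limma adjusted p between 0.408 and 0.985). The deposited values carry no level, so a row near background and an expressed gene that was steady look the same here.

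**Figure D1:**
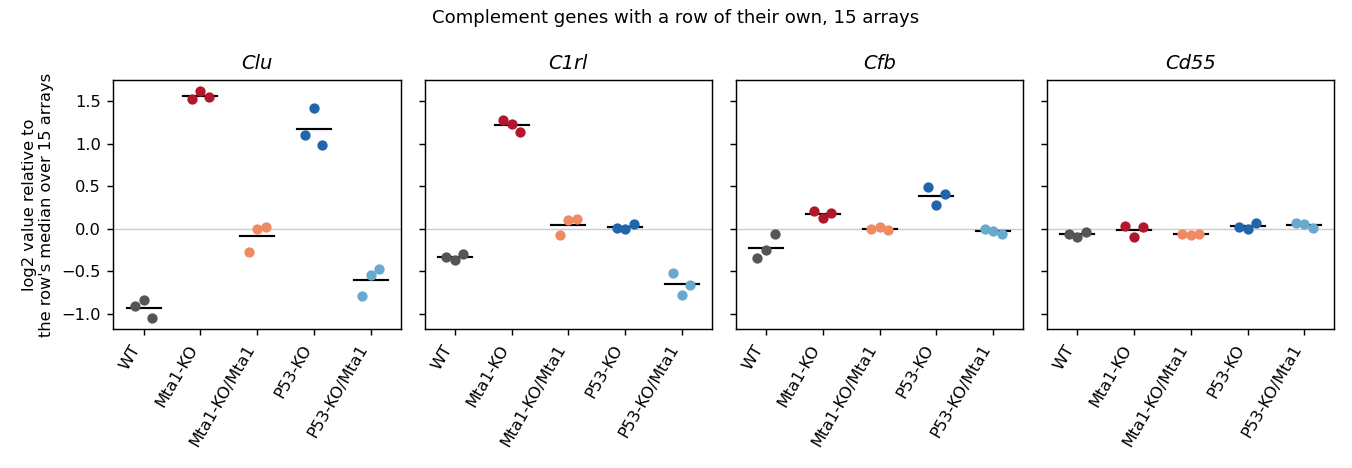
Log2 value relative to the row's median (y axis) in each of the 15 arrays (points) of the 5 groups (x axis), with the group mean as a line, for Clu, C1rl, Cfb and Cd55 on one scale. Clu spans -1.05 to 1.62 and is high in both knockouts, C1rl is high in Mta1-KO alone (1.14 to 1.28), and Cd55 stays between -0.10 and 0.07.

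**Figure D2:**
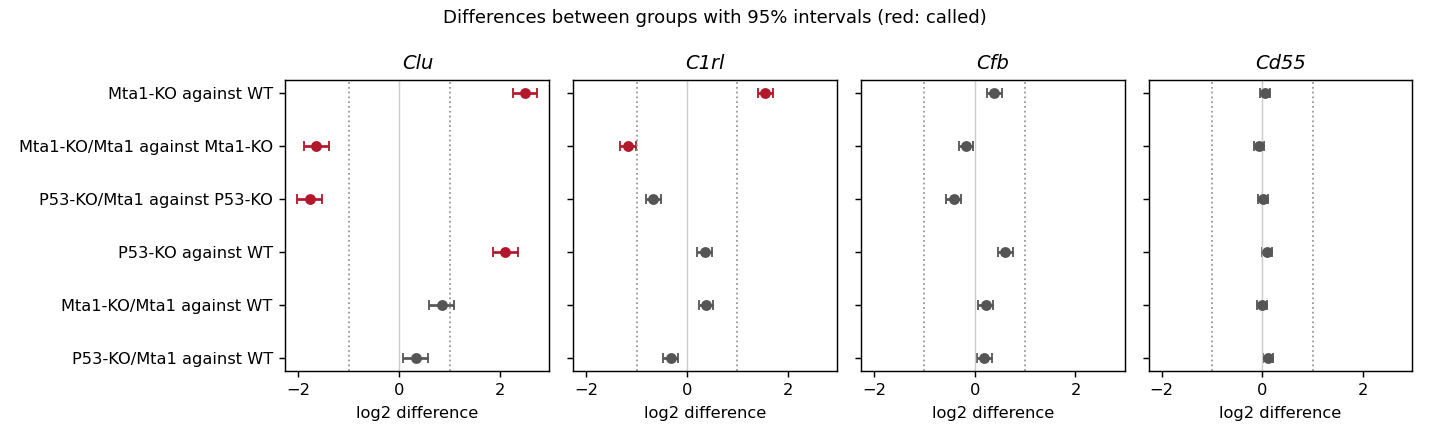
Log2 difference between group means (x axis; points, with 95% intervals from the limma fit as bars) for 6 comparisons (y axis) in the same 4 genes, with dotted lines at 2-fold and called differences in red. Clu is called in 4 comparisons, with 2.50, -1.65, -1.77 and 2.10, and C1rl in 2, with 1.55 and -1.17.

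Counting non-overlap in place of calls, 3 of the 4 genes (all but Cd55) had every Mta1-KO array above every WT array, beside 21.4% of all rows. The same 3 had every Mta1-KO/Mta1 array below every Mta1-KO array, beside 23.5% of all rows, and every P53-KO/Mta1 array below every P53-KO array, beside 19.1%. By the adjusted p alone, Mta1-KO lay above WT for 3 of them (17.6% of all rows), Mta1-KO/Mta1 below Mta1-KO for 2 (15.7%) and P53-KO/Mta1 below P53-KO for 3 (14.2%).

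Set against WT, none of the 4 genes with a row of their own was called in a line with added Mta1. In Mta1-KO/Mta1 0 of the 4 genes were called by limma (3 at an unadjusted p under 0.05, 0 by the methods' t-test), beside 3.37% of all rows called higher. By the adjusted p alone 3 were higher, all under 2-fold, where 6453 of 16755 rows passed in either direction. In P53-KO/Mta1 0 were called by limma (3 higher and 1 lower at an unadjusted p under 0.05, 0 by the methods' t-test), beside 3.14% called higher. The adjusted p alone passed 2 higher and 1 lower, all under 2-fold, and 7740 of 16755 rows in either direction. In P53-KO against WT 1 was called, Clu, beside 4.87% of all rows called higher. The difference between the responses in both backgrounds was called for 0 of the 4 genes by limma (1 higher and 1 lower at an unadjusted p under 0.05) and for 1.63% of all rows. By the adjusted p alone it passed for 1 gene, C1rl, beside 17.4% of all rows.

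The shared rows add C4b and Cd59a, with the limit that the copies cannot be told apart. C4 is cut by C1s and MASP-2 and becomes part of the classical C3 convertase. The row shared by C4a and C4b read -0.29, -0.21 and 0.13 in WT, 0.51, 0.30 and 0.28 in Mta1-KO, and -0.07, -0.05 and -0.03 in the arrays labelled Mta1-KO/Mta1. It read 0.78, 0.64 and 0.77 in P53-KO and 0.00, -0.04 and -0.12 in P53-KO/Mta1. Both knockouts stood above their Mta1 counterparts without overlap, and P53-KO was the highest group, as for Cfb. The differences were 0.49 for Mta1-KO against WT (limma adjusted p = 6.88e-04), -0.42 for Mta1-KO/Mta1 against Mta1-KO (0.00408) and -0.78 for P53-KO/Mta1 against P53-KO (2.40e-05), none of them 2-fold. Across the 15 arrays this row and Cfb correlated with a Pearson r of 0.948, which describes points that share groups and arrays.

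Cd59 is the membrane anchored protein that blocks the last step of the attack complex. The row shared by Cd59a and Cd59b read -0.27, -0.21 and -0.35 in WT, against 1.90, 2.54 and 2.42 for Mta1-KO. It still read 1.80, 1.96 and 2.12 in the arrays labelled Mta1-KO/Mta1. In P53-KO it read -0.01, 0.15 and 0.00, and in P53-KO/Mta1 -0.05 on all 3 arrays. The row was thus high in both lines with the Mta1 knockout and low in all others. Mta1-KO exceeded WT 5.93-fold (log2 2.57, limma adjusted p = 7.77e-10), and Mta1-KO/Mta1 differed from Mta1-KO by -0.33 (0.0745). The arrays labelled Mta1-KO/Mta1 stayed 4.71-fold above WT (log2 2.24, limma adjusted p = 4.47e-09). This covered 12.9% of the distance back to WT, where Clu covered 66% and C1rl 75.7%. A second row, shared by Cd55 and Cd55b, was as flat as the Cd55 row, with group means from -0.01 to 0.02.

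**Figure D3:**
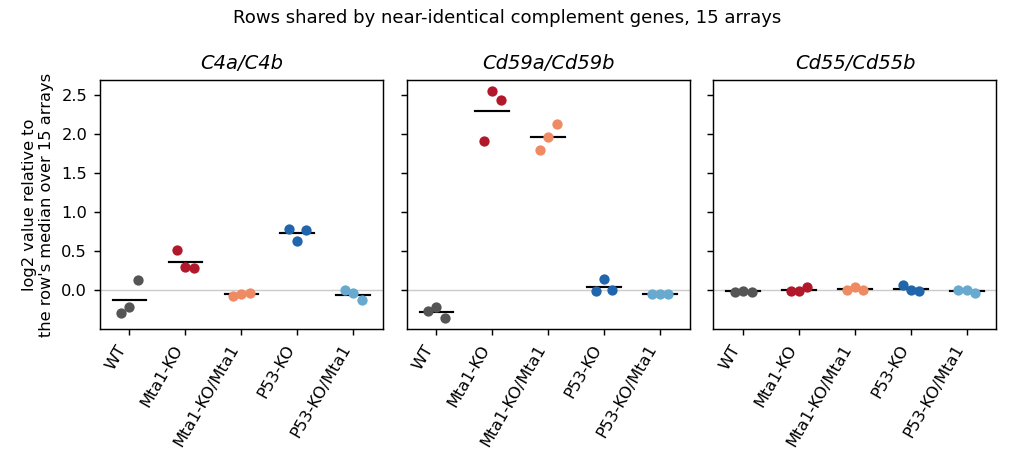
Log2 value relative to the row's median (y axis) in each array (points) of the 5 groups (x axis), with the group mean as a line, for the rows shared by C4a and C4b, by Cd59a and Cd59b, and by Cd55 and Cd55b. The Cd59a and Cd59b row reads 1.80 to 2.54 in both Mta1-KO lines and -0.35 to 0.15 in the others.

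The rest of the pathway was followed through 55 further complement genes, of which 35 had a row of their own, so that 39 genes were read in all. In Mta1-KO against WT 3 of the 35 were called higher and 1 lower (4.23% and 2.41% of all rows), and 9 were higher and 2 lower by the adjusted p alone (17.6% and 22.6% of all rows). In Mta1-KO/Mta1 against Mta1-KO 0 were called by limma (4 higher and 7 lower at an unadjusted p under 0.05, 0 by the methods' t-test), with 3 higher and 7 lower by the adjusted p alone (12.4% and 15.7% of all rows). In P53-KO/Mta1 against P53-KO 3 were called lower (1.22% of all rows), and 2 were higher and 8 lower by the adjusted p alone (15.7% and 14.2% of all rows). In Mta1-KO/Mta1 against WT 4 were called higher (3.37% of all rows). The difference between the responses is the log2 difference with added Mta1 in the Mta1-KO background minus that in the P53-KO background. It passed the adjusted p for 6 of the 35, all with a positive value, beside 17.4% of all rows in either direction. A positive value can be a smaller fall in the Mta1-KO background, as for C1ra below. The median log2 difference of the 35 was 0.07, -0.02 and -0.06, close to that of all rows. The called genes sat in the first proteases, the lectin pathway, the soluble regulators and the receptors.

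C1ra, the C1r protease itself, lies next to C1rl on chromosome 6, followed by C1s1. It read -1.15, -1.10 and -1.03 in WT, 0.71, 0.74 and 0.54 in Mta1-KO, and 0.07, 0.18 and 0.25 in the arrays labelled Mta1-KO/Mta1. It read 0.00, 0.01 and -0.32 in P53-KO, and -1.21, -1.05 and -1.18 in P53-KO/Mta1. For C1ra, Mta1-KO exceeded WT 3.38-fold (log2 1.76, limma adjusted p = 8.61e-10) and P53-KO/Mta1 was 2.06-fold below P53-KO (log2 -1.04, 1.01e-06). The arrays labelled Mta1-KO/Mta1 stayed 2.4-fold above WT (log2 1.26, 4.08e-08). Their difference from Mta1-KO was -0.50, which passed the adjusted p (7.52e-04, limma) but not the 2-fold limit. C1ra thus lay further below its knockout in the P53-KO background (difference of the responses 0.55, limma adjusted p = 0.00757), the opposite of its neighbour C1rl. C1s1 and C1s2 share 2 rows, where Mta1-KO exceeded WT 15.4-fold and 5.83-fold (log2 3.95 and 2.54, limma adjusted p = 1.70e-12 and 1.55e-09). On these rows P53-KO/Mta1 was 5.24-fold and 2.52-fold below P53-KO (log2 -2.39 and -1.33, 3.10e-09 and 5.31e-06). Mta1-KO/Mta1 differed from its knockout by -0.55 and -0.36 (limma adjusted p = 0.00221 and 0.0671), so the first passed the adjusted p but neither reached 2-fold.

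The promoters of these neighbours are printed because C1rl and C1ra were both higher in Mta1-KO and both lower with added Mta1 in either background. The fall was larger in the Mta1-KO background for C1rl and in the P53-KO background for C1ra. They are the 250 bases before the gene start in RefSeq, both on the plus strand of GRCm38.p6, C1rl at chr6:124492863-124493112 and C1ra at chr6:124512371-124512620. Capitals mark a match to the C/EBP motif.
C1rl: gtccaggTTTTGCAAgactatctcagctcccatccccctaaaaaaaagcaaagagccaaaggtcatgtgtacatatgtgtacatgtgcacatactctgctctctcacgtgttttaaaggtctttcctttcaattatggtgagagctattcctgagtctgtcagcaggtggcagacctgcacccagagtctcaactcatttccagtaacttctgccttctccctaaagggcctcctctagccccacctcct
C1ra: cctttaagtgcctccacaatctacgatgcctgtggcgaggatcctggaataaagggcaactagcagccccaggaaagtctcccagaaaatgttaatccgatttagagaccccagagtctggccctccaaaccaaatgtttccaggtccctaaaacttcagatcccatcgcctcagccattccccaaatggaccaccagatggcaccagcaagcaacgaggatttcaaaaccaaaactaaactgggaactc

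Motifs of 4 factor families that act on complement genes were searched on both strands. The letters were TTCNNNGAA for STAT and TTGCNNAA for C/EBP, beside a stimulated response element for IRF and a site for NF-kB. In the order STAT, IRF, C/EBP and NF-kB they were found in 7.02%, 2.98%, 9.56% and 1.41% of 32851 mouse promoters of the same length. The C1rl promoter held 1 match, to the C/EBP letters on the minus strand between -243 and -236, and the C1ra and Cd55 promoters held none. A match is a string of letters and was not tested as a binding site.

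Among the soluble regulators, Serping1 encodes the C1 inhibitor, which inactivates C1r and C1s. It read -1.46, -1.29 and -1.38 in WT, 1.47, 1.44 and 1.46 in Mta1-KO, and 0.61, 0.87 and 0.94 in the arrays labelled Mta1-KO/Mta1. It read -0.07, 0.07 and 0.00 in P53-KO and -1.42, -1.32 and -1.33 in P53-KO/Mta1. For Serping1, Mta1-KO exceeded WT 7.11-fold (log2 2.83, limma adjusted p = 7.35e-13) and P53-KO/Mta1 was 2.56-fold below P53-KO (log2 -1.36, 1.49e-08). Mta1-KO/Mta1 was 0.65 below Mta1-KO (-0.65, 2.24e-05), under 2-fold and 0.71 less than the fall in the P53-KO background (limma adjusted p = 4.16e-04). It remained 4.53-fold above WT (log2 2.18, limma adjusted p = 1.77e-11). C4bp, whose product is a cofactor in the breakdown of C4b, stood out in P53-KO, at 1.16, 1.30 and 0.89, while its other 12 arrays lay between -0.07 and 0.08. P53-KO/Mta1 was 2.18-fold below P53-KO in C4bp (log2 -1.12, limma adjusted p = 1.96e-07). The 3 remaining soluble regulators with a row, Cfi and Vtn among them, were not called in any of these comparisons.

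In the lectin pathway 1 of 7 genes was called in Mta1-KO against WT. This was Colec12, a scavenger receptor with a collectin domain, 2.92-fold higher (log2 1.55, limma adjusted p = 1.88e-09). Colec12 was lower in both lines with added Mta1 than in their knockouts, by less than 2-fold. The log2 difference was -0.49 in the Mta1-KO background and -0.44 in the P53-KO background (limma adjusted p = 5.35e-04 and 0.00112). Mta1-KO/Mta1 was still 2.08-fold above WT in Colec12 (log2 1.06, limma adjusted p = 1.43e-07). The C1q chains C1qa, C1qb and C1qc spanned -0.06 to 0.17 in Mta1-KO against WT and were not called there by limma (0 at an unadjusted p under 0.05, 0 by the methods' t-test). The 6 terminal components with a row spanned 0.00 to 0.38 and were not called by limma either (1 at an unadjusted p under 0.05, 0 by the methods' t-test). By the adjusted p alone 1 of the 6 was higher (17.6% of all rows), under 2-fold. Of 8 receptors 1 was called, Cd93, a surface glycoprotein first described as a C1q receptor, with Mta1-KO 2.2-fold below WT (log2 -1.14, limma adjusted p = 1.14e-06). Cd93 read 0.62, 0.54 and 0.25 in WT, -0.65, -0.55 and -0.81 in Mta1-KO, and 0.31, -0.02 and 0.13 in the arrays labelled Mta1-KO/Mta1.

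No membrane regulator with a row of its own was called in Mta1-KO against WT by limma (3 of 5 at an unadjusted p under 0.05, 0 by the methods' t-test), the range being 0.05 to 0.92. By the adjusted p alone 3 of the 5 were higher (17.6% of all rows), each under 2-fold. Cr1l, the rodent regulator Crry that controls C3 convertases on mouse cells, was looked at after its values were seen. It was 0.92 above WT in Mta1-KO and 1.12 above WT in the arrays labelled Mta1-KO/Mta1, the latter called (limma adjusted p = 2.70e-06). In P53-KO it was 2.1-fold below WT (log2 -1.07, limma adjusted p = 2.11e-06). Like the Cd59a and Cd59b row, Cr1l thus stayed high in both lines with the Mta1 knockout.

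**Figure D4:**
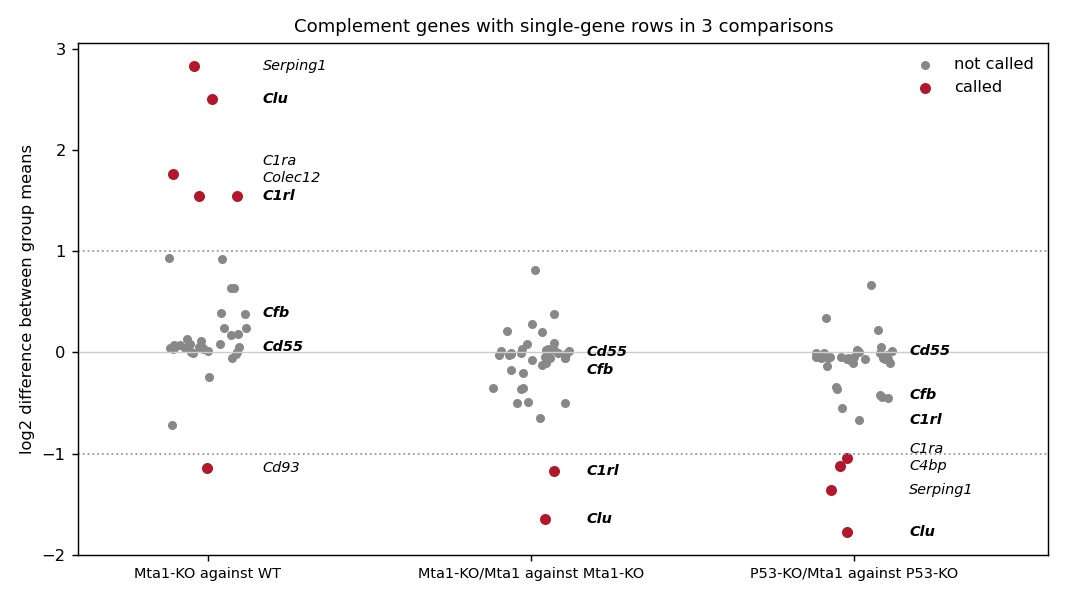
Log2 difference between group means (y axis; each point is a gene) for the 4 complement genes (bold names) and 35 further complement genes in 3 comparisons (x axis), with dotted lines at 2-fold and called genes in red. Most genes lie near 0, while Serping1 (2.83) and Clu (2.50) lead in Mta1-KO against WT and Clu (-1.65 and -1.77) is the lowest gene in both comparisons with added Mta1.

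**Figure D5:**
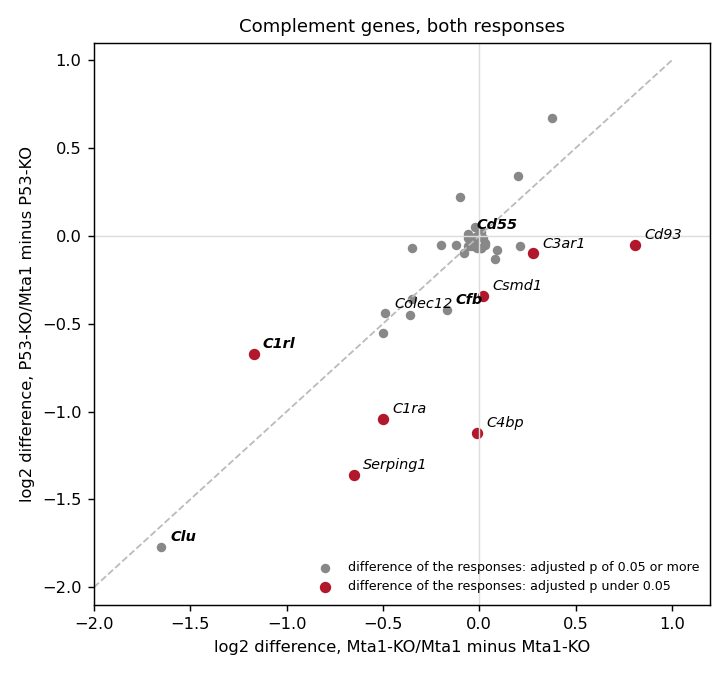
Log2 difference of Mta1-KO/Mta1 against Mta1-KO (x axis) and of P53-KO/Mta1 against P53-KO (y axis) for the same 39 genes (points), with equality as a dashed line and genes whose responses differ at an adjusted p under 0.05 in red. Clu (-1.65, -1.77) lies near the line, C1rl (-1.17, -0.67) on one side of it, and C1ra, Serping1, C4bp, Cd93, Csmd1 and C3ar1 on the other.

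Cytokines, receptors and factors that induce complement genes were read from a list of 28 genes, 22 with a row. In Mta1-KO against WT 3 of the 22 were called higher (4.23% of all rows), in Mta1-KO/Mta1 against Mta1-KO 1 was called lower (0.788% of all rows), and in P53-KO/Mta1 against P53-KO 0 were called by limma (3 higher and 9 lower at an unadjusted p under 0.05, 0 by the methods' t-test). By the adjusted p alone 13 were higher and 2 lower in Mta1-KO against WT (17.6% and 22.6% of all rows). In Mta1-KO/Mta1 against Mta1-KO 1 was higher and 8 lower in this way (12.4% and 15.7% of all rows). For P53-KO/Mta1 against P53-KO 3 were higher and 8 lower (15.7% and 14.2% of all rows). The median log2 difference of the 22 was 0.39, -0.12 and -0.16, beside 0.03, -0.03 and -0.02 over all rows. The 3 genes called higher in Mta1-KO were receptors, namely Il1r1 for interleukin 1 (log2 1.73), Osmr for oncostatin M (1.29) and Tnfrsf1b for tumor necrosis factor (1.01). The gene called lower was the cytokine gene Il6, at -1.27 in Mta1-KO/Mta1 against Mta1-KO (limma adjusted p = 2.15e-05) and -0.38 in P53-KO/Mta1 against P53-KO (0.0684).

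Markers of the cell type also differed between the groups. The mean of 8 fibroblast markers, all with a row, was -1.16 to -0.98 on the WT arrays and 0.20 to 0.24 on the Mta1-KO arrays. It was -0.27 to -0.26 in Mta1-KO/Mta1, 0.70 to 0.83 in P53-KO and 0.03 to 0.26 in P53-KO/Mta1. Of the 8 markers 4 were called higher in Mta1-KO against WT (4.23% of all rows), with log2 differences of 0.02 to 4.20 over the 8. Their part in the complement results was not tested. The mean of 9 macrophage and blood markers was 0.16 to 0.22 in WT and -0.18 to -0.08 in Mta1-KO. Of the 9 markers 2 were called lower in Mta1-KO against WT (2.41% of all rows). By the adjusted p alone 1 was higher and 3 lower (17.6% and 22.6% of all rows). Their median log2 difference was 0.02, beside 0.03 over all rows, with a range of -1.70 to 0.25, so the lower mean came from part of the list. The mean of 7 markers of hepatocytes and yolk sac endoderm stayed between -0.07 and 0.14 on all arrays. Endothelial markers averaged -0.13 to -0.02 in WT and 0.07 to 0.18 in Mta1-KO (8 with a row), and epithelial markers -0.08 to 0.06 and -0.36 to -0.08 (5 with a row). In Mta1-KO against WT 1 of the 8 endothelial markers was called higher (4.23% of all rows), and 1 of the 5 epithelial markers lower (2.41%). The medians of these lists were 0.08 and 0.03, beside 0.03 over all rows, so most of their markers did not move with the mean. Since the values carry no level, whether a marker was absent cannot be read from them. In RNA from whole cultures, fewer cells of a type and less RNA per cell cannot be told apart.

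Other genes followed the same pattern over the 15 arrays, as a description of points that share groups and arrays. Among 3346 rows of other genes whose group means spanned at least 2-fold, those closest to Clu were Agt (Pearson r 0.978), Mid1 (0.971) and Arrdc4 (0.97). Agt, which encodes angiotensinogen, differed by 1.37, -0.86 and -1.22 in the 3 comparisons. Those closest to C1rl were Siae (0.986), Ilvbl (0.984) and Trp63 (0.98). Siae, a sialic acid esterase gene, differed by 1.62, -1.25 and -0.70. Those closest to Cfb were Ror1 (0.953), Bambi (0.945) and Sned1 (0.943), and those closest to the flat Cd55 row were Snai1 (0.875), Ccdc85b (0.841) and Zbtb22 (0.84). Between the members, Clu correlated with C1rl at 0.811 and with Cfb at 0.8, and C1rl with Cfb at 0.429.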

How the data were processed

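Fibroblast RNA was hybridized to Mouse Exon 1.0 ST arrays. Per the labels and methods, the authors normalized the arrays in GeneSpring GX and deposited log2 values, 1 per transcript row, centred on each row's median over the 15 arrays. The array intensities before normalization were not used, so depth is unknown and the 3 arrays a group limit the precision. Probe annotation gave 14996 rows 1 gene, 1019 several and 740 none. Groups were taken from the sample titles. One mean per group was fitted to the 15 arrays with limma 3.58.1 in R 4.3.3 (lmFit, eBayes, Benjamini-Hochberg over 16755 rows). As in the study's methods, a call needed both a 2-fold difference and an adjusted p under 0.05. The code was tested on simulated data.

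The members and lists were chosen with earlier results of these data known. Named further genes were the pathway genes called in any of the 3 comparisons the study makes, up to 4 inducers by size of change, and for each member the 3 genes with the highest correlation. Alternatives were the methods' t-test, quantile normalization, recentring of arrays, eBayes with trend and robust settings, other folds, a replicate block and leaving out each array. Promoters came from RefSeq (GRCm38.p6), which matched 2 of the 4 members in the table used. No columns of the authors' own comparisons were used.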

Additional observations from a re-analysis of the deposited data

Results flagged for a closer look

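The genes below are given because the response to added Mta1 differed between the Mta1-KO and P53-KO backgrounds, by limma's test of the difference itself with Benjamini-Hochberg adjustment. Positive values mean that the log2 difference was higher in the Mta1-KO background. Among the complement genes the difference was -0.50 for C1rl (adjusted p = 0.00241), 0.55 for C1ra (0.00757), 0.71 for Serping1 (4.16e-04), 1.11 for C4bp (1.63e-05) and 0.86 for Cd93 (0.00167). It also passed for Csmd1 (0.36, 0.00593) and C3ar1 (0.37, 0.0495), so that 6 of the 35 further complement genes passed, beside 17.4% of all rows. Of these 7 complement genes only C1rl has a negative value. Csmd1, C3ar1 and the last inducers below lie outside the rule for named genes and were named after their values were seen. Among the inducers it was 0.66 for Osmr (9.37e-05), -0.89 for Il6 (0.00823) and 0.45 for Tnfrsf1b (6.64e-04). It also passed for the inducers Socs3 (0.78, 0.0107), Nfkbia (-0.72, 0.00359), Lif (-0.67, 0.00265), Il6st (0.39, 0.0075), Ifngr2 (0.34, 0.00807) and Nfkb2 (-0.30, 0.038), in all 5 higher and 4 lower of 22. The Mta1 row itself had a difference of -0.44 (0.00418), with values of 0.27 for over expression in P53-KO and -0.17 for the arrays labelled Mta1-KO/Mta1.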

How the results depend on the processing

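The count of called members in Mta1-KO against WT was 2 under every alternative run except with no minimum fold and with the shared rows counted as members, a choice made after seeing the data, which each gave 3. Leaving out any 1 array changed no count of called members in any comparison. Quantile normalization lowered the count in Mta1-KO/Mta1 against Mta1-KO to 1. It gave 1 call among the 35 further complement genes there (0 as deposited), an alternative added after seeing the data. It also moved the split of higher and lower calls over all rows, to 643 and 513 in Mta1-KO against WT (708 and 404 as deposited), 120 and 119 for added Mta1 in the Mta1-KO background (54 and 132) and 85 and 157 for added Mta1 in the P53-KO background (66 and 205). With no minimum fold the counts were 3 in P53-KO/Mta1 against P53-KO, 3 in each comparison of another line with WT apart from Mta1-KO, and 1 for the difference of the responses. With a fold of at least 1.5 they were 2, 1 and 2 in P53-KO/Mta1 against P53-KO, Mta1-KO/Mta1 against WT and P53-KO against WT. Values near 0 changed sign when an array was left out, namely Cd55 in P53-KO/Mta1 against P53-KO (range 0.00 to 0.03) and in Mta1-KO/Mta1 against WT (-0.02 to 0.01), and the difference of the Clu responses (0.00 to 0.22). The genes most like a member depended on the measure of likeness: of the 3 nearest, 0 or 1 stayed for each member with Spearman's rho, and 0 or 1 for Clu, Cfb and Cd55 over the group means. Arrays with the same replicate number deviated together in 3 of 9 pairs, taken as a correlation over 0.1. The correlations ranged from -0.379 to 0.423, so whether the numbers pair the arrays is undecided. A replicate block changed no call of a member, with counts of 2, 2 and 1 in the 3 comparisons the study makes. The number of arrays limits what small differences can show.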
